A study of Rattus norvegicus with 30 samples.

Results

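Tissue that had grown inside a chitosan tube 14 days after a delayed repair of the rat median nerve was compared with healthy median nerve, by sequencing of poly(A) RNA. The libraries were chosen by their labels: 4 of delayed repair at day 14 (DEL_14D) and 5 of control nerve (CTR_NERVE), 9 of the 30 libraries of the series. The count table lists 32545 genes, of which 16015 passed the filter on low counts and were tested. All samples came from adult female wild-type rats, and the strain is not given in the sources used here. In the delayed repair the median nerve, a nerve of the forelimb, was cut to leave a gap of 8 mm. A tube of 10 mm made of chitosan, a polysaccharide derived from chitin, was placed across it 3 months later, and the tissue inside was collected after 14 days. Control nerve was healthy and untreated, and is labelled day 0. The remaining groups used serve to place the comparison: delayed repair at day 7 (DEL_7D, 5 libraries) and at day 21 (DEL_21D, 3 libraries), and day 14 of a repair made at the time of the cut (IMM_14D, 4 libraries). The cut, the wait, the tube and the growth after it all separate delayed tissue from control nerve, and against control nerve alone their parts cannot be told apart. By the labels, IMM_14D differs from DEL_14D in the wait before repair, and DEL_7D and DEL_21D differ from it in the time after repair. The labels number the replicates without saying that each is a separate animal, so the spread between samples that p-values measure may be technical. For single genes that spread was estimated over all 30 libraries, not over the 9 compared alone.

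A healthy peripheral nerve is made largely of axons, the Schwann cells that ensheathe them, and the connective tissue and vessels around them. Myelinating Schwann cells wrap large axons in a lipid-rich sheath and are known for making a handful of structural proteins in very large amounts. When a nerve is cut, the axons beyond the cut degenerate, Schwann cells leave the myelinating state, and macrophages clear the debris. In an empty tube a bridge of matrix, fibroblasts, blood vessels and immune cells forms first, and Schwann cells and axons grow into it later. A long wait before repair is known to lower the support that the distal nerve gives to growing axons. The count table names genes by Ensembl ID without symbols, and 0 of the IDs matched the table of rat gene symbols used here. The results are therefore given for genes ordered by level and by change, with 4 genes named by ID, and the labelled tissue was not checked against its marker genes. Where a transcript was lower in a bulk sample, fewer cells of a type and less RNA per cell cannot be told apart.

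Total counts in the 9 libraries lay between 12628256 and 16431590, with a median of 14973470. Each library was correlated across genes with the mean of the others of its group. Spearman's rho was 0.978 to 0.990 in delayed day 14 tissue and 0.989 to 0.991 in control nerve. No pair of replicates agreed within sampling noise, since chi-square divided by its degrees of freedom was at least 14.9 in each of 16 pairs. The labels give no batch.

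The first question was how much of the transcriptome differed from healthy nerve. Of the 16015 genes tested, 8310 (51.9%) differed, 4197 (26.2%) being higher and 4113 (25.7%) lower in delayed day 14 tissue (quasi-likelihood test of edgeR, p under 0.05 after Benjamini-Hochberg adjustment over all genes tested). The number of rises and of falls was thus nearly equal. An unadjusted p under 0.05 was reached by 9131 genes (57.0%). The 4 delayed libraries lay wholly above the 5 control libraries in 4254 genes (26.6%) and wholly below them in 4452 genes (27.8%), together 54.4% of the genes tested. Of the genes called, 3728 rises and 3799 falls had such separate groups. The 95% interval of the log2 fold change had a median half-width of 0.59. In 4150 of the 7705 genes that did not pass the test this interval stayed inside 2-fold, whichever the sign. For the other genes that did not pass, a difference of 2-fold or more could not be told from none.

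**Figure D1:**
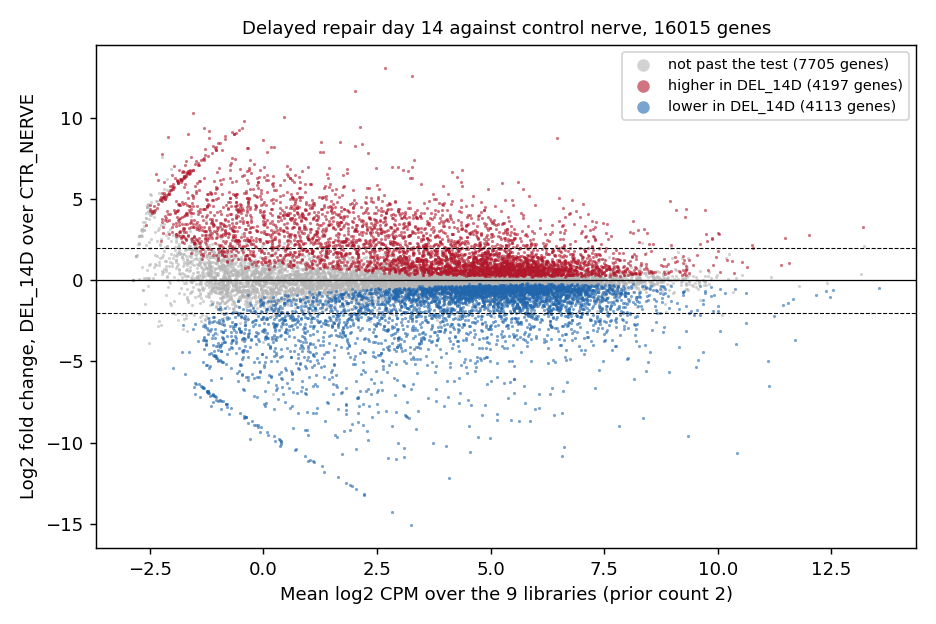
Each point is 1 of the 16015 genes tested, placed by its mean log2 CPM (prior count 2) over the 9 libraries and its log2 fold change of DEL_14D over CTR_NERVE. Red points (4197) were higher and blue points (4113) lower in DEL_14D at adjusted p under 0.05 (edgeR), and dashed lines mark 4-fold changes.

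Many of the changes were large. At least 2-fold changes that passed the test numbered 2793 rises and 2463 falls. At least 4-fold changes numbered 1757 rises (11% of the genes tested) and 1410 falls (8.80%), together 19.8%. At 16-fold and above there were 645 rises and 545 falls. At 64-fold and above the order turned, with 174 rises and 256 falls. These sizes are fitted values, and for a gene with no counts in one of the groups the fitted value depends on the prior count of the fit. Of the 64-fold changes, 80 rises had 0 counts in every control library and 83 falls had 0 counts in every delayed day 14 library. Without such genes the 64-fold changes comprised more falls than rises as before.

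Expression of single genes is given in CPM, the reads of a gene scaled to a common library total. Genes were named among those with separate groups and an average of 3 or more in log2 CPM over the 9 libraries compared. An average over both tissues can leave out a gene that was near 0 in one of them. A gene under this cutoff had a larger fitted rise than both named rises, which are therefore not the largest of all genes tested. The 2 largest fitted rises and 2 largest fitted falls within the cutoff were plentiful in one tissue. In the other tissue they were low, or at or near 0. ENSRNOG00000002548 measured 1353, 783, 934 and 694 CPM in the 4 delayed day 14 libraries, against 0.0694, 0.125, 0.479, 0 and 0.0810 CPM in the 5 control libraries. The control values stand for 1, 2, 6, 0 and 1 reads. Every delayed library was thus high and control nerve had next to none. The pooled level was 6623 times that of control nerve, and the fitted log2 fold change was 12.58 (SE 1.68, edgeR adjusted p = 9.57e-07).

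The other large rise, ENSRNOG00000012660, reached a higher level in the tube. It measured 2628, 4008, 2986 and 2539 CPM in delayed day 14 libraries, against 2.29, 3.00, 7.34, 3.81 and 18.9 CPM in control libraries. The groups stood far apart, although control replicate 5 was higher than the other 4 control libraries. The log2 fold change was 8.75 (SE 1.49, edgeR adjusted p = 2.45e-05).

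Among the falls, ENSRNOG00000012821 had 0 counts in all 4 delayed day 14 libraries, against 219, 224, 416, 170 and 483 CPM in control nerve. With a floor of 3 counts over the delayed group, it was at least 6222-fold lower (edgeR adjusted p = 9.65e-07). ENSRNOG00000048139 measured 0.248, 0, 0.179 and 0 CPM in delayed libraries, from 7 reads in all, against 585, 498, 676, 490 and 552 CPM in control nerve. Its log2 fold change was -12.18 (SE 1.55, edgeR adjusted p = 9.69e-07). Both transcripts were plentiful in every control library and at or near 0 in every delayed one.

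**Figure D2:**
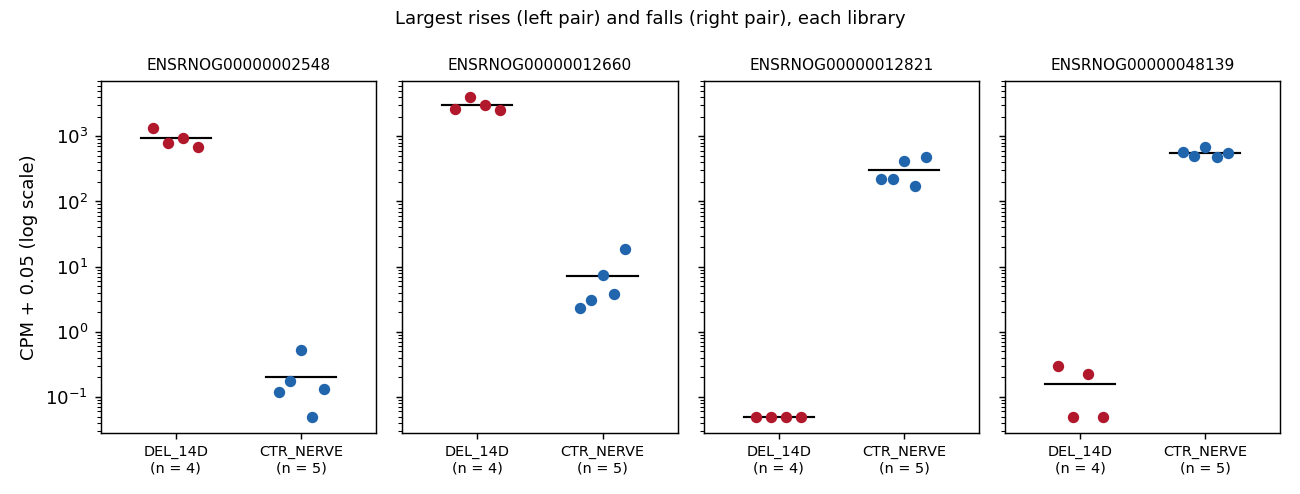
CPM of 4 genes in each library, plotted as CPM + 0.05 on a log axis, with DEL_14D (4 libraries, red) left of CTR_NERVE (5 libraries, blue) and a black line at the group mean. The left pair of genes was high in every delayed library, and the right pair was high in every control library. Points at the bottom of the axis are libraries with 0 counts.

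Complete presence or absence was less common than graded change. By the rule of at least 1 CPM in every library of a group and 0 counts in every library of the other, 13 genes had reads in delayed day 14 tissue and not in control nerve, and 45 the reverse. The 13 were low, with a median of 4.36 CPM and a highest mean of 7.91 CPM in delayed tissue. The 45 had a median of 8.14 CPM and reached 302 CPM in control nerve. With a floor of 3 counts over the group at 0, the 13 were at least 40.7 to 184 times higher and the 45 at least 29.96 to 6222 times lower in delayed tissue. All 13 had counts in at least 1 library of IMM_14D. Of the 45, 29 had counts in IMM_14D, 24 in DEL_7D and 31 in DEL_21D, so the larger part of them had some reads in each of these groups.

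Several of the most abundant transcripts of healthy nerve were among those that fell furthest. The ranking of genes is by reads and takes no account of transcript length. The top gene of control nerve measured 25.7 ± 22.2 CPM (SD, n = 4) in delayed day 14 tissue, where it ranked 6630, and 41188 ± 13928 CPM (n = 5) in healthy tissue. It fell by 10.65 on the log2 scale (SE 1.63, edgeR adjusted p = 6.19e-06). The gene at rank 2 of control nerve measured 186 ± 25.7 CPM in delayed tissue and 16678 ± 3705 CPM in control nerve (log2 fold change -6.49, SE 0.70). That at rank 4 measured 16.3 ± 5.14 CPM in delayed tissue and 12724 ± 1602 CPM in control nerve (log2 fold change -9.61, SE 1.11). Ranks 5 and 6 of control nerve had log2 fold changes of -3.70 (SE 0.31) and -4.95 (SE 0.24). Rank 3 fell less (log2 fold change -0.49, SE 0.17, edgeR adjusted p = 0.0161) and stayed among the most abundant of both tissues.

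The most abundant transcripts of delayed tissue were in part those of control nerve, where its ranks 2, 4 and 5 stood at ranks 13, 7 and 3. Its top gene measured 35857 ± 7456 CPM there (SD, n = 4) and 3688 ± 2298 CPM (n = 5) in healthy tissue, and rose by 3.28 on the log2 scale (SE 0.89, edgeR adjusted p = 0.00315). Rank 3 measured 12256 ± 3840 CPM in delayed tissue and 1791 ± 342 CPM in control nerve (log2 fold change 2.77, SE 0.41). Rank 6 measured 7977 ± 746 CPM in delayed tissue and 1300 ± 455 CPM in control nerve (log2 fold change 2.62, SE 0.29). The gene at rank 2 measured 24423 ± 5544 CPM in delayed tissue and 5578 ± 4495 CPM in control nerve, but its log2 fold change of 2.13 (SE 0.94) did not pass the test (edgeR adjusted p = 0.0608). In the control group its values ran from 2138 to 13412 CPM, a wide spread, yet all lay below the lowest delayed library at 21001 CPM. The SE rests on a spread estimated over all 7 groups of the fit, not on these 2 groups alone. Rank 4 did not pass either (log2 fold change 0.40, SE 0.72, edgeR adjusted p = 0.665).

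The exchange at the top of the ranking can be read as a share of all reads. The 6 most abundant genes of delayed tissue held 10.3%, 12.0%, 9.83% and 10.2% of the counts in the delayed day 14 libraries, against 2.73%, 3.08%, 3.14%, 3.05% and 4.33% in the control libraries. The 6 most abundant genes of control nerve held 1.15%, 1.10%, 1.25% and 1.28% of the counts in delayed libraries, against 9.02%, 8.90%, 10.2%, 9.26% and 12.3% in control libraries. One gene belongs to both sets. The set of delayed tissue held similar shares in DEL_21D and IMM_14D, with means of 10.6% in DEL_14D, 10.1% in DEL_21D and 10.2% in IMM_14D. In DEL_7D its share was lower, with a mean of 5.03% and a range of 2.92% to 6.76%. Each set was chosen by its level in one of the groups, so these shares are given as a description, without a test.

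**Figure D3:**
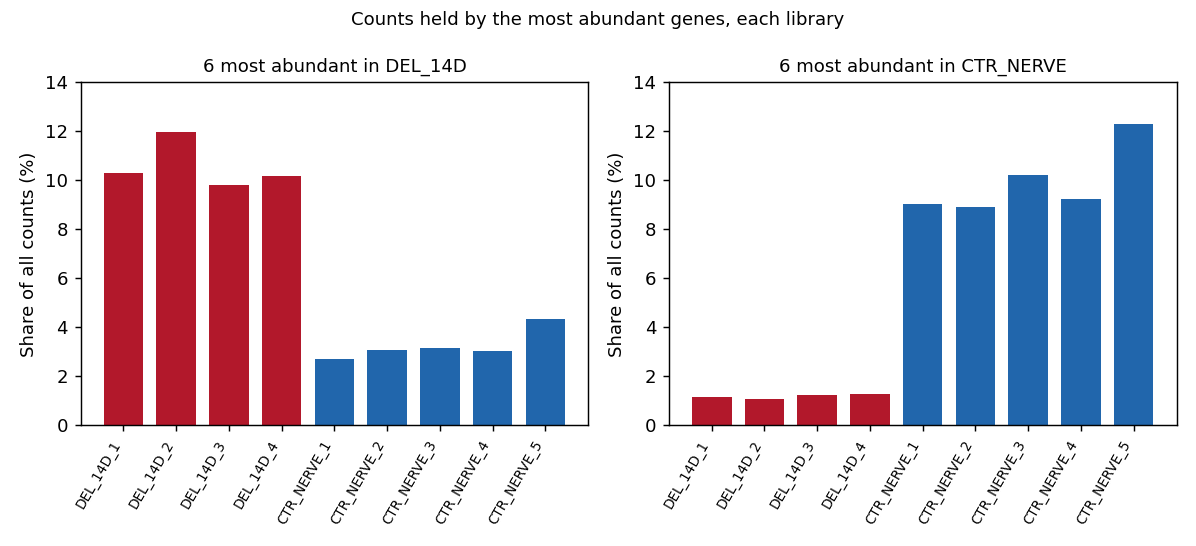
Share of all counts held by the 6 most abundant genes of DEL_14D (left panel) and of CTR_NERVE (right panel), 1 bar per library, with DEL_14D in red and CTR_NERVE in blue. The first set held 9.83% to 12.0% in DEL_14D and 2.73% to 4.33% in CTR_NERVE. The second set held 1.10% to 1.28% in DEL_14D and 8.90% to 12.3% in CTR_NERVE.

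The same exchange ran down the ranking. Among the 100 most abundant genes of each tissue, 39 were shared. Of the 100 of delayed tissue, 55 rose against control, 30 of them at least 4-fold, and 13 fell. Of the 100 of control nerve, 67 fell, 40 of them at least 4-fold, and 12 rose. Over all genes tested 26.2% rose and 25.7% fell, and choosing genes by their level in one of the compared groups favors the direction of that group. Among the top 500 of each tissue, 275 genes (55.0%) were shared. Taken over all called genes, the 4197 rises held 42.4% ± 2.56 of the counts in delayed libraries (SD, n = 4) and 13.3% ± 0.37 in control libraries (n = 5). The 4113 falls held 18.1% ± 1.11 in delayed libraries and 52.9% ± 0.88 in control libraries. The 1757 rises of at least 4-fold made up 19.2% ± 2.18 of the counts in delayed tissue and 1.97% ± 0.37 in control nerve. The 1410 falls of that size made up 1.87% ± 0.26 in delayed tissue and 25.7% ± 1.37 in control nerve. These sets were defined by the difference itself and are given as a description.

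How evenly reads were spread over genes was tested apart from any called gene, with 3 measures taken per library. The share of counts held by the 10 most abundant genes of each library was 12.7% ± 0.84 in delayed tissue (SD, n = 4) and 12.9% ± 1.79 in control nerve (n = 5), a difference of -0.28 percentage points (two-sided exact permutation test, p = 0.857, adjusted p = 0.857 over 3 tests). This difference turned to 0.46 without control replicate 5. The 1000 most abundant genes of each library held 56.3% ± 0.61 in delayed tissue and 58.0% ± 1.16 in control nerve (exact permutation p = 0.0159, adjusted p = 0.0238). The number of genes with counts at an equal depth of 11958242 counts was 17994 ± 143 in delayed tissue and 17612 ± 129 in control nerve, a difference of 382 genes (exact permutation p = 0.0159, adjusted p = 0.0238). In both of these measures all 4 delayed libraries lay on the same side of all 5 control libraries, and 0.0159 is the smallest p that this design allows. With any delayed library left out, both had p = 0.0357 and adjusted p = 0.0536 (exact permutation test). At that size no smaller unadjusted p can be reached.

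The share of genes that changed differed with their level. Genes were put into classes by the mean of their CPM in both groups. In the 1847 genes under 1 CPM, 24.3% rose and 11.9% fell. From 10 to 30 CPM, 25.2% rose and 26.6% fell. In the 1509 genes from 100 to 300 CPM, 26.3% rose and 36.8% fell, and in the 76 genes at 1000 CPM or more, 38.2% rose and 43.4% fell. Rises thus outnumbered falls among weakly expressed genes, and falls outnumbered rises among abundant ones. Changes of at least 4-fold were least common in the middle of the range: from 30 to 100 CPM they comprised 5.61% rises and 5.15% falls, against 22.4% rises and 23.7% falls at 1000 CPM or more. The precision differed along the range, with a median half-width of the 95% interval of 1.70 under 1 CPM and 0.35 from 30 to 100 CPM on the log2 scale. A weakly expressed gene could also pass the filter on low counts through a single group of libraries. Of the 7 groups in the filter, all but control nerve were tube tissue, which favors rises among weakly expressed genes.

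**Figure D4:**
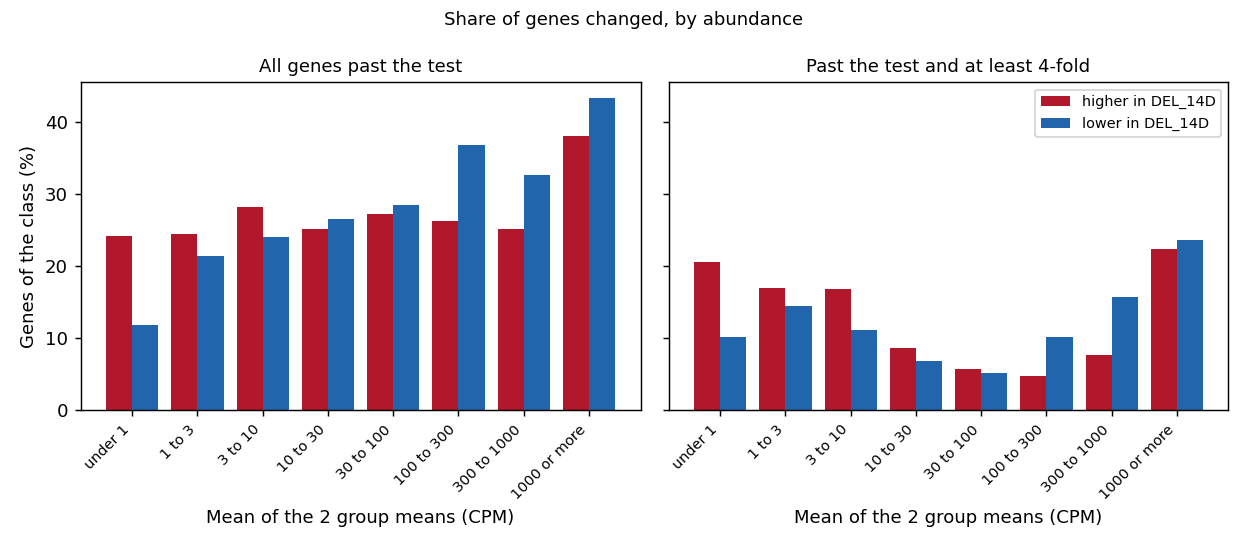
Share of genes that were higher (red) or lower (blue) in DEL_14D than in CTR_NERVE at adjusted p under 0.05 (edgeR), by class of mean CPM over both groups. The left panel counts all such genes and the right panel those changed at least 4-fold. Under 1 CPM 24.3% rose and 11.9% fell, and at 1000 CPM or more 38.2% rose and 43.4% fell.

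Replicates of the delayed repair spread more widely than those of control nerve. The biological coefficient of variation within the group was 28.6% in delayed day 14 tissue, against 35.1% in IMM_14D, 60.8% in DEL_7D, 32.5% in DEL_21D and 20.5% in control nerve. Over the 11586 genes with a mean of at least 5 CPM, the median SD of log2 CPM was 0.20 in delayed tissue and 0.18 in control nerve. The SD was wider in delayed tissue for 63.2% of the genes that fell and for 49.9% of those that rose, beside 56.7% of all 11586 genes. The SD of log2 CPM depends on the number of reads. Genes that fell had fewer reads in delayed tissue and genes that rose had more, so their shares do not compare spread at an equal level. No test of these shares was made.

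Delayed day 14 replicate 2 had more transcripts far above the rest of its group than the other libraries did. In it, 60 of the 11586 genes were at least 4-fold above each of the other 3 delayed day 14 libraries, against 2, 15 and 4 genes in replicates 1, 3 and 4. In control nerve the number was 1 to 4 per library. The 60 genes took 1.54% of the counts of replicate 2, with a median of 110 CPM. The median of their highest values was 15.3 CPM in the other 3 libraries, 83.5 CPM in DEL_7D and 10.6 CPM in control nerve. In 55 of the 60 the value of replicate 2 lay above every control library, and 42 were called higher in delayed day 14 tissue, while 2 were called lower. These genes were picked for a high value in a delayed library, which favors a call of higher, and over all genes tested 26.2% were called higher and 25.7% lower. The 15 genes that stood out in replicate 3 behaved otherwise: 11 of them were called lower, with a median of 8.60 CPM in replicate 3, 1.23 CPM for the highest of the other 3 libraries and 50.5 CPM for the highest control library. Without replicate 2, 7485 genes were called against control nerve, 3800 higher and 3685 lower, and without replicate 3 the numbers were 4053 higher and 3856 lower.

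The calls were mostly kept when single libraries were removed. Of the 4197 rises, 3434 (81.8%) were called in the same direction in each of 9 fits that left out 1 of the compared libraries, as were 3299 (80.2%) of the 4113 falls. Of the at least 4-fold changes, 1573 rises (89.5%) and 1258 falls (89.2%) were kept. Counts scaled by library totals alone, with no correction for composition, gave a median log2 fold change of 0.14 over all genes, against -0.00072 with the correction. On that scale 4960 genes were called higher and 3384 lower in delayed tissue. The near equality of rises and falls is thus relative to the median gene.

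The next question was how far day 14 differed between the delayed and the immediate repair. No gene was called different between DEL_14D and IMM_14D (0 of 16015, 0%, edgeR). An unadjusted p under 0.05 was reached by 244 genes (1.52%). Other tools made few calls, 8 by DESeq2 and 2 by voom of limma with weights for sample quality. For 59.4% of all genes the 95% interval of the difference between the repairs stayed inside 2-fold, and its median half-width was 0.61 on the log2 scale. It did so for 59.9% of the 4197 genes that were higher and 61.6% of the 4113 genes that were lower in delayed tissue than in control nerve. For the 1757 rises of at least 4-fold the share was 24.2% and for the 1410 falls of that size 12.8%, so for most of these genes a difference of 2-fold or more between the repairs could not be told from none. ENSRNOG00000002548 averaged 941 ± 292 CPM in DEL_14D and 1103 ± 377 CPM in IMM_14D (SD, n = 4 each). ENSRNOG00000012660 averaged 3040 ± 674 CPM in DEL_14D and 3937 ± 643 CPM in IMM_14D. ENSRNOG00000012821 was at 0 in DEL_14D and between 0 and 0.952 CPM in IMM_14D. None of the 4 named genes passed the test between the repairs (edgeR adjusted p = 1 for each).

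Day 14 was then placed in the course of the delayed repair. Between DEL_14D and DEL_7D, 5557 genes (34.7%) differed, 2896 (18.1%) being higher and 2661 (16.6%) lower at day 14 (edgeR, adjusted p under 0.05). Of the at least 4-fold changes, 1274 (7.96%) were higher and 441 (2.75%) lower at day 14. Scaling by library totals alone gave 3512 higher and 1724 lower among all calls, against 2896 and 2661 with the correction. The fit of these 9 libraries alone called 3347 genes. Of the 1410 genes at least 4-fold lower than control nerve at day 14, 345 (24.5%) were higher than at day 7 and 96 (6.81%) were lower than at day 7. Of the 1757 genes at least 4-fold higher than control nerve, 328 (18.7%) were above and 339 (19.3%) below their day 7 level. Beside them, 18.1% of all genes tested were above and 16.6% below the day 7 level. The same day 14 libraries enter both comparisons.

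The 328 rises that stood above their day 7 level were chosen for being high at day 14 against both groups, which favors a day 7 level near that of control nerve. As a description, in 127 of them the day 7 mean lay below the control mean, and the median day 7 level of the 328 was 0.27 above control on the log2 scale. Both named rises also stood above their day 7 level, and both varied widely at day 7. They were named for a large rise in the same day 14 libraries, which favors a day 14 level above that of day 7. ENSRNOG00000002548 ran from 2.25 to 393 CPM in the DEL_7D libraries and was higher at day 14 by 2.77 on the log2 scale (SE 1.07, edgeR adjusted p = 0.0463). ENSRNOG00000012660 ran from 2.91 to 886 CPM in the DEL_7D libraries, 2 of which, at 2.91 and 4.52 CPM, lay within the control range of 2.29 to 18.9 CPM, and it was higher at day 14 by 3.19 (SE 1.17, edgeR adjusted p = 0.0364). Day 7 libraries thus differed from each other more than 100-fold in both genes, while day 14 libraries differed less than 2-fold. At day 14, 4150 genes did not pass the test against control nerve and had a 95% interval within 2-fold. Of these, 465 were above and 810 below their day 7 level, together 30.7%. Over all genes tested, 18.1% were above and 16.6% below their day 7 level, together 34.7%.

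Between day 21 and day 14 no gene was called different (0 of 16015, 0%, edgeR), with 3 libraries at day 21. An unadjusted p under 0.05 was reached by 620 genes (3.87%). Other fits called more. DESeq2 called 40 genes, 32 higher and 8 lower at day 21, and voom 69, 63 higher and 6 lower. Fitting these 7 libraries alone called 1 gene. Without DEL_21D replicate 3, 22 genes were called, and without replicate 2, 1. Without DEL_7D replicate 5 and IMM_21D replicate 4, which lie outside this comparison, 43 were called. All genes called in the fits with fewer libraries were higher at day 21. The median half-width of the 95% interval was 0.66, and the interval lay within 2-fold for 54.8% of genes. The groups did not overlap in the 2 named falls, with the 3 day 21 libraries higher. Both genes were chosen for levels at or near 0 at day 14, which favors higher values in any other group. How often groups were separate over all genes was not counted for this comparison. DEL_21D replicate 3 had 3 and 9 reads of the 2 genes. ENSRNOG00000012821 measured 0.205 to 5.43 CPM and ENSRNOG00000048139 0.616 to 22.2 CPM at day 21, against 0 and 0 to 0.248 CPM at day 14. Their differences from day 14 did not pass the test (edgeR adjusted p = 0.270 and 0.178).

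The genes changed at least 4-fold at day 14 were then followed through the other groups, as a description. All of these values share the same control libraries. The median log2 CPM of the 1757 rises relative to the control mean was 2.84 ± 0.30 in DEL_7D (SD of library medians, n = 5), 2.91 ± 0.24 in DEL_14D (n = 4) and 2.77 ± 0.16 in DEL_21D (n = 3). That of the 1410 falls was -4.01 ± 0.50 in DEL_7D, -3.12 ± 0.16 in DEL_14D and -2.80 ± 0.41 in DEL_21D. Among the falls, 4 of the 5 day 7 libraries lay below every day 14 library, and DEL_7D replicate 5, at -3.17, lay among them. One day 21 library, replicate 3 at -3.24, also lay within the day 14 range of -3.28 to -2.90. The IMM_14D libraries, which are not part of the contrast that chose the genes, stood at 2.88 ± 0.19 for the rises and -3.14 ± 0.21 for the falls (n = 4). The groups overlapped at day 14 in both sets.

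**Figure D5:**
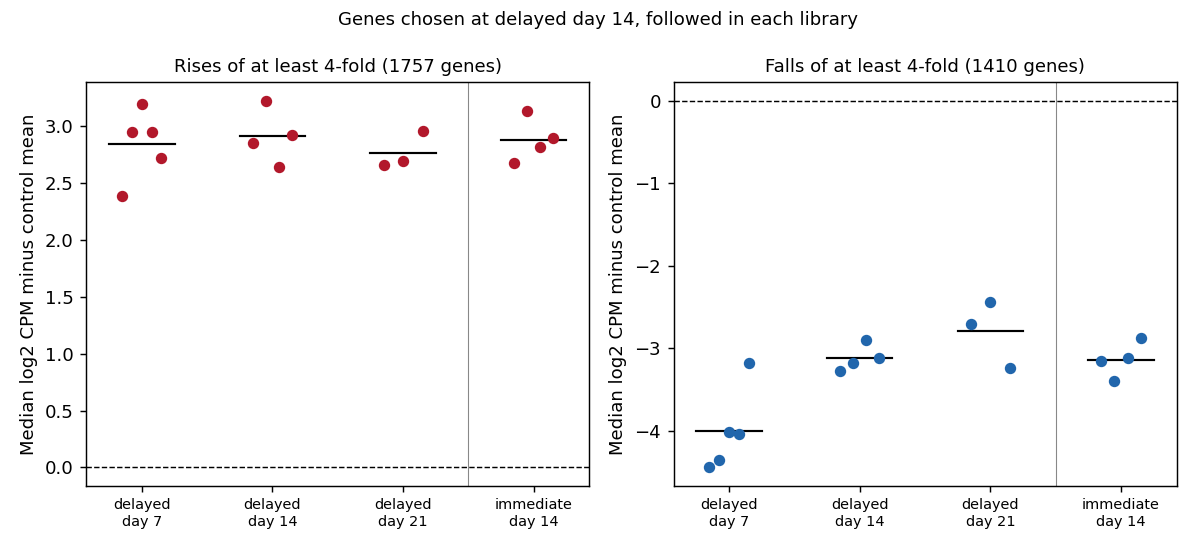
Median over genes of log2 CPM minus the control mean, for the 1757 rises (left) and 1410 falls (right) of at least 4-fold chosen in DEL_14D against CTR_NERVE. Each point is a library, black lines are group means and the dashed line is the control mean. Group means of the rises lay between 2.77 and 2.91, and those of the falls were -4.01 at day 7, -3.12 at day 14 and -2.80 at day 21 of delayed repair.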

How the data were processed

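Per the labels' protocols, poly(A) RNA was captured from 400 ng of RNA (integrity above 6) and sequenced without strand marking, so overlapping or antisense genes share reads. What the authors deposited is 1 table of raw counts by Ensembl gene ID, without normalization. Per the submitters' processing notes, the tools were DESeq2 1.38.3, HISAT2 2.0.5 and featureCounts 1.5.0-p3, with no role stated. The sources used here give neither the genome build and annotation nor how reads shared by similar genes were counted. Columns were matched to samples by library name.

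The test used edgeR 4.0.16 (R 4.3.3): filterByExpr on the 7 groups, TMM factors, 1 robust quasi-likelihood fit of all 30 libraries, and Benjamini-Hochberg adjustment over 16015 genes. All groups share an estimate of spread. SEs were taken from the test statistic. CPM used TMM-scaled totals, and levels on the log2 scale a prior count of 2. Counts at equal depth are expected numbers when each library is drawn down to the smallest total of the 30. Library measures were compared by exact permutation (scipy 1.17.1). The fit was tested on simulated data. Intervals cover sampling and replicate spread as the fit models them.

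Named genes are the 2 largest rises and the 2 largest falls that passed the test, had no overlap of groups and averaged 3 or more in log2 CPM. This is the part of the rule kept for IDs without symbols. The 42 marker and pathway lists, set by symbol, were not analysed here. Comparison, rule and lists were chosen with earlier results of these data known. Alternatives were DESeq2 1.42.0, relative log expression (RLE) factors, no filter, the compared groups alone, limma 3.58.1 voom, a replicate block, leaving out libraries and, added after seeing the data, library totals alone and the library measures without each library.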

Additional observations from a re-analysis of the deposited data

Results flagged for a closer look

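Beside the comparison with control nerve, effects were set against each other between times and repairs, and those that differed by the test of the difference itself were between day 14 and day 7 of the delayed repair. Over all genes, 5557 differed by the edgeR test, and among the 4 named genes ENSRNOG00000002548 (log2 difference 2.77) and ENSRNOG00000012660 (log2 difference 3.19) were higher at day 14. Both of these were named for large rises in the same day 14 libraries, which favors a higher level at day 14.

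Single libraries stood apart from the rest of their group in 4 of 36 sets of values examined. The cutoff used marks about 1 set in 20 when values are normally distributed. That rate does not hold for sets of a few reads, and several sets share genes, so the 4 cannot be set against chance. Control replicate 3 had 0.479 CPM of ENSRNOG00000002548, from 6 reads, and DEL_7D replicate 5 had 0.0626 CPM of ENSRNOG00000048139, from a single read. Delayed day 14 replicate 3 had 0.340% of its counts in the 545 falls of at least 16-fold, against 0.211% to 0.231% in the other 3 delayed libraries. Control replicate 5 had 4.33% of its counts in the 6 most abundant genes of delayed tissue, against 2.73% to 3.14% in the other 4 control libraries.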

How the results depend on the processing

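The count of genes changed against control nerve (8310) lay between 7485 and 10791, and that of at least 4-fold changes (3167) between 2814 and 3594, under all 17 alternatives each. Of the 4197 rises 3201 and of the 4113 falls 3078 were called in the same direction in every one of these. Against control nerve, the 4 named genes kept direction and call wherever an adjusted p was given. DESeq2 gave none for 187 genes, ENSRNOG00000012660 among them. The differences of the named genes from DEL_7D, DEL_21D and IMM_14D were not followed across the alternatives. Between DEL_14D and IMM_14D, DESeq2 called 8 genes and voom 2, and every other alternative called 0, including each library left out. Between DEL_14D and DEL_7D the fit of the compared groups alone called 3347 genes, and leaving out single libraries gave 4171 to 6390. Between DEL_21D and DEL_14D, DESeq2 called 40, voom 69, the compared groups alone 1, the fit without DEL_7D replicate 5 and IMM_21D replicate 4 43, and leaving out single libraries 0 to 22. Leaving out single libraries gave differences of -0.686 to 0.459 percentage points for the share of the 10 most abundant genes, -2.04 to -1.40 points for that of the 1000 most abundant, and 329.9 to 437.4 genes at equal depth. The cause of these moves was not tested.

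With the replicate number as a block, 8106 genes changed against control nerve and 3100 at least 4-fold, 0 differed between DEL_14D and IMM_14D, 5751 between DEL_14D and DEL_7D, and 0 between DEL_21D and DEL_14D. Same-numbered libraries of DEL_14D and CTR_NERVE correlated at -0.045 to 0.165 in their deviations from group means, 1 of 4 pairs being above 0.1, so the numbers were not taken as pairs. Intervals were widest for genes under 1 CPM, with a median half-width of 1.70 on the log2 scale, and the part of depth in this was not tested.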
